A study of Mus musculus with 6 samples.

Results

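The genes of the smooth muscle contractile and cytoskeletal apparatus were examined in mouse mesenteric arteries, which carry blood to the intestine. The set held 39 genes for actins, myosins, tropomyosins and other actin filament proteins, intermediate filaments, and proteins of the Z-bodies and dense bodies. Its members were all probe sets whose single gene symbol in the platform annotation is one of these 39. By that rule 93 of the 45037 probe sets on the array belonged to it, from all 39 genes. Of the 93, 80 lay above the filter on dim probe sets, at least 1 for each of the 39 genes, among 10654 genes tested in all.

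Each of 6 mice gave 1 array. The 3 control mice (animal numbers 30, 74 and 75) carried loxP-flanked beta1 integrin alleles and no Cre. The 3 knockout mice (72, 73 and 86) carried the same alleles and in addition an sm22alphaCRE transgene, whose recombinase is driven by the regulatory sequence of Tagln (SM22alpha), itself a member of the set. All 6 were on a mixed background (including FVB, SVJ129 and C57BL/6), were given 14 daily doses of 1 mg tamoxifen beginning when they were 5 weeks old, and were sampled at 7 weeks. The controls thus lacked both the deletion and the recombinase, and effects of these cannot be told apart. RNA came from whole vessels cleared of adipose and lymph tissue, so fewer cells of a type and less RNA per cell cannot be told apart either.

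In smooth muscle, force comes from myosin filaments that pull on actin filaments, and myosin light chain kinase switches the myosin on by phosphorylating its regulatory light chain. Tropomyosins, calponins, caldesmon and transgelins bind along the actin filament, and dense bodies and membrane plaques, which contain integrins, anchor it. Most of these proteins come as paralogues, of which some are typical of differentiated muscle (Myh11, Tpm1, Tpm2, Tagln) and others occur in nearly all cells (Myh9, Tpm3, Tpm4, Tagln2). The genes below are ordered by these roles, and each was placed in a differentiated class of 25 genes or a broadly expressed class of 14.

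The targeted gene Itgb1, which encodes beta1 integrin, had log2 values of 11.80, 11.04 and 11.20 in controls 30, 74 and 75 and of 10.51, 10.56 and 10.76 in knockouts 72, 73 and 86. All 3 knockout arrays were lower, at 60.1% of control (95% confidence interval 42.2 to 85.6, limma adjusted p = 0.127, exact permutation p = 0.1, the smallest that 3 against 3 arrays allow). Smooth muscle markers were bright on every array, with Acta2 at 13.95 to 14.10, Myh11 at 12.86 to 13.56, Tagln at 13.17 to 13.77 and Cnn1 at 11.66 to 12.71. Xist stood at 11.83 in knockout 86 and at no more than 6.09 elsewhere, while Eif2s3y stood at 2.03 there and at 8.63 or more elsewhere, so sex was confounded with group in part. Markers of other cells also differed between arrays, and their values are given below. Here and below a log2 value is log2(intensity + 1) after quantile normalization, a difference is knockout minus control, and a gene is read from its probe set with the highest signal.

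Across the 39 genes, 2 rose in knockout arteries and 0 fell at a limma adjusted p under 0.05. The 2 were Tagln2 and Tpm4, both of the broadly expressed class. Among all genes tested, 1.76% rose and 0.657% fell. At an unadjusted p under 0.05, 5 of the 39 were higher and 7 lower. The shares over all genes were 9.86% higher and 11.5% lower. The members' groups did not overlap in 13 of 39, or 33.3%, where 28.1% of all genes tested had no overlap, so this share was near the background.

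The 2 classes had different medians. The classes were drawn up with earlier results of these data known, so their counts and medians are descriptions and no test of a contrast. In the differentiated class 22 of 25 genes had a difference below 0, with a median of -0.35 and a range from -1.20 to 0.57, and 7 of 25 lay below the controls on all 3 knockout arrays. In the broadly expressed class 6 of 14 had a difference below 0, with a median of 0.07, and 6 of 14 lay above the controls on all 3 knockout arrays. Over all genes tested the median was -0.05, 56.9% had a difference below 0, 15.1% lay below the controls without overlap and 13.0% above them. With median centring of the arrays in place of quantile normalization, the broadly expressed median was -0.01 and the differentiated median -0.42. The median over all genes tested was then -0.10.

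**Figure D1:**
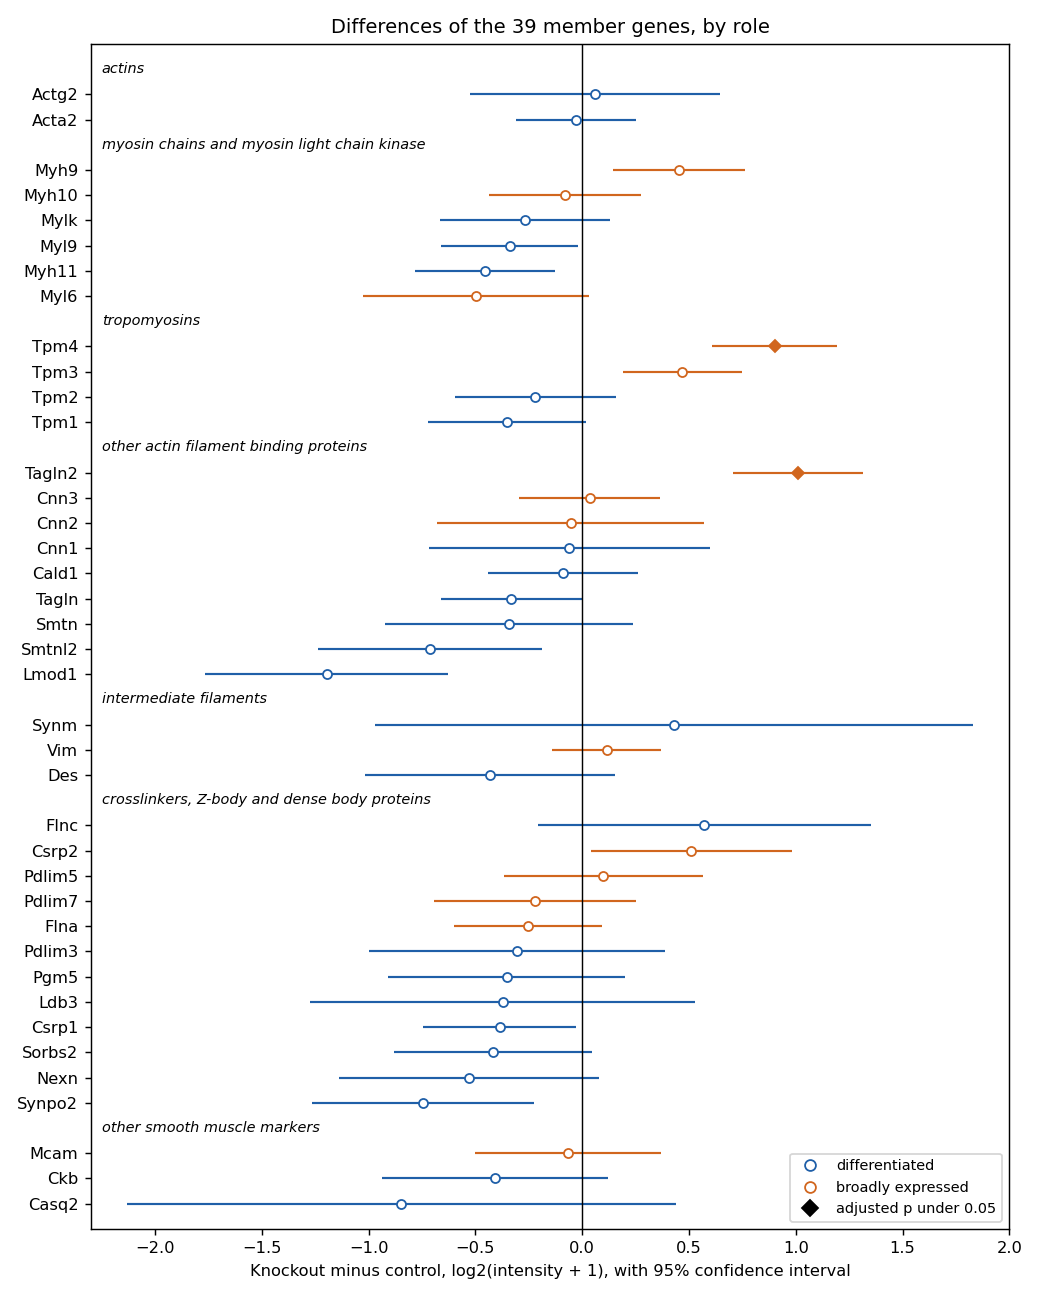
Difference between knockout and control arteries for each of the 39 genes, on the log2(intensity + 1) scale, with its 95% confidence interval from the limma fit of 3 against 3 arrays, grouped by role. Blue genes belong to the differentiated class and orange genes to the broadly expressed class; the filled diamonds, Tagln2 and Tpm4, passed an adjusted p of 0.05.

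Neither actin gene differed beyond its spread. Acta2 encodes the alpha actin of vascular smooth muscle. Its log2 values were 14.10, 13.95 and 14.10 in controls 30, 74 and 75 and 14.10, 14.02 and 13.95 in knockouts 72, 73 and 86. The groups overlapped, with a difference of -0.03 (95% confidence interval -0.31 to 0.25, adjusted p = 0.917). This probe set was the brightest of all on 3 arrays (controls 30 and 75 and knockout 72) and stood at 87.4% or more of the array maximum on the others. Quantile normalization gives the brightest probe set of every array the same value, here 14.10. The normalized Acta2 values thus reflect rank at the top of each array, and their narrow interval says little on its level. Its deposited intensities were 16161, 16131 and 17868 in the controls and 17457, 15455 and 17724 in the knockouts. Whether its signal was limited at the top of the range was not tested. The dimmer Acta2 probe sets had differences of -0.56 and -0.87, with overlapping groups (adjusted p = 0.432 and 0.439 by probe set). The brightest one has the suffix s. With probe sets of suffixes x and s left out, the Acta2 difference was -0.56 in place of -0.03. Actg2, the gamma actin of visceral and some vascular smooth muscle, stood at 13.03, 12.16 and 12.93 in the controls and 12.83, 12.58 and 12.89 in the knockouts. Its difference was 0.06 (95% confidence interval -0.53 to 0.64, adjusted p = 0.913), and control 74 was the lowest array.

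The myosin heavy chains were read in 3 paralogues. Myh11, the smooth muscle heavy chain, had log2 values of 13.54, 13.33 and 13.56 in the controls and 13.16, 12.86 and 13.05 in the knockouts. All 3 knockout arrays lay below the lowest control, at 72.9% of the control level, but the difference of -0.46 (SE 0.14) did not pass over all genes (adjusted p = 0.133). Myh9, a nonmuscle heavy chain of nearly all cells, went the other way, from 11.84, 12.02 and 12.01 in the controls to 12.38, 12.55 and 12.29 in the knockouts. Its difference was 0.45 (SE 0.13, adjusted p = 0.125), again without overlap. All 5 of its probe sets were higher in the knockout, by 0.41 to 0.87. Myh10, the other nonmuscle chain, differed by -0.08 (95% confidence interval -0.44 to 0.28).

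The light chains and their kinase had differences below 0. Myl9, the regulatory light chain that the kinase phosphorylates, stood at 13.86, 13.60 and 13.83 in the controls and 13.46, 13.28 and 13.53 in the knockouts. The knockout arrays were all lower, with a difference of -0.34 (SE 0.14, adjusted p = 0.213). Myl6, an essential light chain, differed by -0.50 (adjusted p = 0.254), and its groups overlapped because control 74, at 10.61, lay among the knockouts (10.53 to 10.68) and below controls 30 and 75 (both 11.37). Without control 74 it fell by 0.75 (adjusted p = 0.046), but it did not pass with any other array left out (adjusted p up to 0.503). Mylk, the kinase, differed by -0.27 (adjusted p = 0.393), and all 3 of its probe sets by -0.41 to -0.27. Only the dimmest of these had no overlap (adjusted p = 0.227 by probe set).

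Of the tropomyosins, which wind along the actin filament, Tpm4 rose. Its log2 values were 11.22, 11.14 and 11.28 in the controls and 11.98, 12.15 and 12.22 in the knockouts. The spread within each group was small beside the gap, and the difference of 0.90 (SE 0.12, adjusted p = 0.0203) was 1.87-fold. Tpm3 stood at 11.67, 11.47 and 11.61 in the controls and at 12.08, 12.06 and 12.02 in the knockouts. Its groups did not overlap, with a difference of 0.47 (SE 0.12, adjusted p = 0.0958), and its 2 dimmer probe sets differed by 0.33 and 1.05. The muscle paralogues lay on the other side of 0. Tpm1 had values of 13.31, 12.87 and 13.22 against 12.88, 12.67 and 12.80, where control 74 was just below knockout 72. Its difference was -0.35 (SE 0.16, adjusted p = 0.247). The second brightest Tpm1 probe set differed by -0.34 without overlap (adjusted p = 0.290 by probe set), and a dimmer one by -0.41 with overlap. Tpm2 differed by -0.22 (adjusted p = 0.462), by -0.24 in its second brightest probe set and by -1.09 in a dimmer one, which had no overlap (adjusted p = 0.0859 by probe set).

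Among the other actin filament binding proteins, Tagln2 rose and Tagln did not. Tagln2, a transgelin of many cell types, stood at 10.69, 10.52 and 10.42 in the controls and 11.50, 11.52 and 11.65 in the knockouts. The difference of 1.01 (SE 0.13, adjusted p = 0.0166) was 2.01-fold. By its suffix, x, that probe set includes probes that also match similar sequences. The Tagln2 probe set without this suffix had values of 9.34, 10.06 and 9.36 against 10.08, 10.26 and 10.44, also without overlap, and a smaller difference of 0.67 (adjusted p = 0.184 by probe set). Tagln, whose promoter drives the Cre, is the transgelin of smooth muscle. Its values were 13.72, 13.52 and 13.77 in the controls and 13.39, 13.17 and 13.46 in the knockouts, with all 3 knockout arrays below the controls and a difference of -0.33 (SE 0.14, adjusted p = 0.231).

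Both calls, of Tagln2 and Tpm4, were sensitive to leaving out an array. With 5 arrays, Tagln2 passed without control 30 (adjusted p = 0.0348) and without control 74 (0.0382), and had adjusted p-values of 0.054 to 0.0779 without control 75, knockout 72, knockout 73 or knockout 86. Tpm4 passed without control 74 (0.0411), and had 0.0567 to 0.0799 without each of the other 5 arrays. Their differences hardly moved, between 0.95 and 1.08 for Tagln2 and between 0.85 and 0.97 for Tpm4. Over all genes tested the share past the threshold was 2.42% with 6 arrays and 0.422% to 2.25% with 5.

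Lmod1, which encodes leiomodin, a nucleator of actin filaments in smooth muscle, had the lowest difference of the 39. It stood at 11.59, 10.85 and 11.67 in controls 30, 74 and 75 and at 10.40, 10.03 and 10.09 in knockouts 72, 73 and 86. The groups did not overlap, and the knockout mean was 43.6% of control, a difference of -1.20 (SE 0.24) that fell just short over all genes (adjusted p = 0.0567). It passed with median centring (adjusted p = 0.0309) and without control 74 (0.0219, with a difference of -1.46). It did not pass with any other array left out (adjusted p up to 0.170) or with no filter (0.127). Smtnl2, a smoothelin-like protein, had values of 7.20, 7.98 and 7.38 against 7.00, 6.68 and 6.74, and a difference of -0.71 (SE 0.22, adjusted p = 0.139). Its control 74 value was the highest of the 6, unlike that of most members.

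The calponins, which bind actin and inhibit myosin, were close to 0 in all 3 genes. The differences were -0.06 for Cnn1, the smooth muscle form, -0.05 for Cnn2 and 0.03 for Cnn3, and the 6 Cnn3 probe sets lay between -0.13 and 0.17. Their intervals were wide for Cnn1 (95% confidence interval -0.72 to 0.60) and Cnn2 (-0.68 to 0.57). For Cnn1, control 74 stood at 11.66 and controls 30 and 75 at 12.71 and 12.46. The sign of each turned in at least 1 alternative. Smtn, smoothelin, differed by -0.34 (adjusted p = 0.458). Cald1, caldesmon, differed by -0.09 (95% confidence interval -0.44 to 0.26) in its brightest probe set and by 0.25 to 0.78 in the other 3 above the filter, so its probe sets disagreed in sign.

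**Figure D2:**
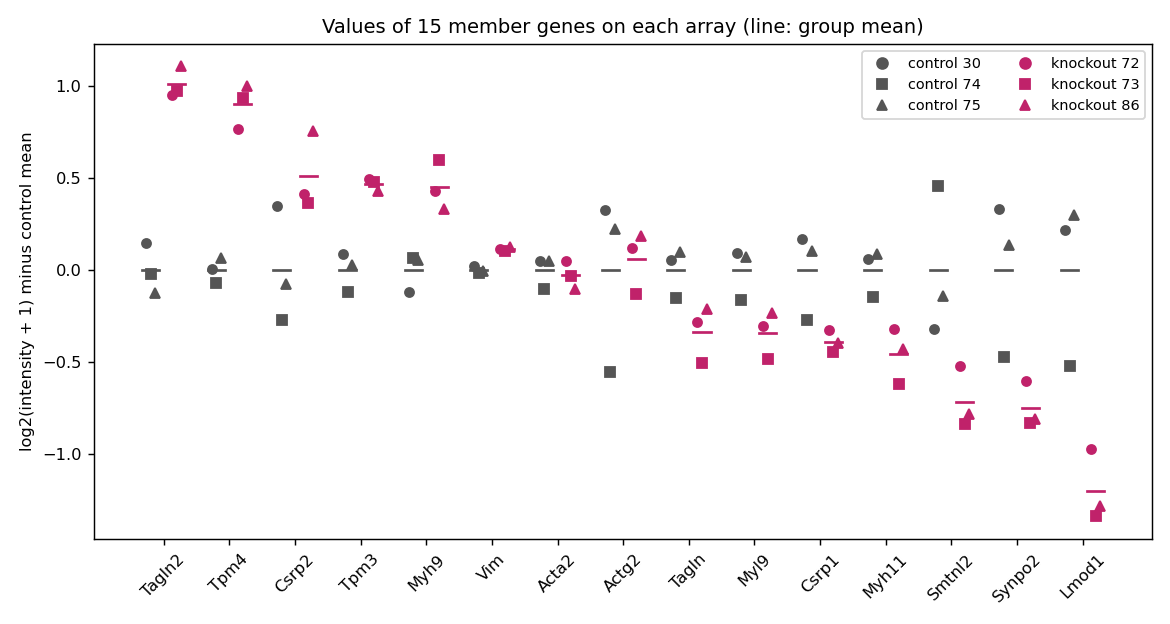
Log2 values of 15 genes on each of the 6 arrays, relative to the control mean of each gene; grey symbols are the 3 control arrays, magenta symbols the 3 knockout arrays and lines the group means. The genes are the 13 whose groups did not overlap together with Acta2 and Actg2, whose groups did.

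The intermediate filament genes showed no difference past the threshold. Des, desmin of muscle cells, stood at 12.59, 11.90 and 12.59 in the controls and 12.21, 11.59 and 11.99 in the knockouts (difference -0.43, SE 0.25, adjusted p = 0.354). Control 74 again lay among the knockouts. Vim, vimentin of mesenchymal cells, had values of 13.78, 13.74 and 13.75 against 13.87, 13.86 and 13.88. These did not overlap, but the difference was small, at 0.11 (SE 0.11, adjusted p = 0.57), and its probe set stood at up to 92.2% of the array maximum. Synm, synemin, which links intermediate filaments to adhesion sites, was the most variable gene of the set, with 11.99, 9.68 and 10.55 in the controls and 11.55, 10.45 and 11.52 in the knockouts. Its difference was 0.43 (SE 0.59, 95% confidence interval -0.97 to 1.83), and its other probe set stood at -0.56.

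Of the 12 crosslinkers and Z-body or dense body proteins, 9 had a difference below 0 and none passed the limma threshold, while 3 had an unadjusted p under 0.05. Synpo2, which encodes an actin-bundling protein of muscle Z-discs and dense bodies, had values of 12.47, 11.67 and 12.28 in the controls and 11.54, 11.31 and 11.33 in the knockouts. All 3 knockout arrays were lower, with a difference of -0.75 (SE 0.22, adjusted p = 0.127). Its 3 dimmer probe sets stood lower still, at -1.19, -1.22 and -1.37, none with overlap (adjusted p = 0.0601, 0.101 and 0.133 by probe set). Synpo2 passed without control 74 (difference -0.98, adjusted p = 0.0388). It did not pass with any other array left out (adjusted p up to 0.311).

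The cysteine-rich LIM proteins Csrp1 and Csrp2, which bind alpha-actinin, went opposite ways. Csrp1 stood at 13.28, 12.84 and 13.22 in the controls and 12.79, 12.67 and 12.72 in the knockouts (difference -0.39, SE 0.15, adjusted p = 0.207). Csrp2 stood at 12.29, 11.67 and 11.86 in the controls and 12.35, 12.31 and 12.70 in the knockouts (difference 0.51, SE 0.20, adjusted p = 0.205). In these probe sets neither gene had overlapping groups, although knockout 73 exceeded control 30 for Csrp2 by little. The other Csrp1 probe set differed by only -0.13, with overlapping groups (adjusted p = 0.856 by probe set).

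The remaining crosslinkers had overlapping groups in their brightest probe sets. Flna, the widely expressed filamin that crosslinks actin and binds integrin tails, differed by -0.25 (95% confidence interval -0.60 to 0.09), and Flnc, the muscle filamin, by 0.57 (-0.21 to 1.35). The differences of the PDZ and LIM domain proteins were -0.31 for Pdlim3, 0.10 for Pdlim5, -0.22 for Pdlim7 and -0.37 for Ldb3. The 6 Pdlim5 probe sets above the filter all lay above 0, between 0.10 and 1.12, with knockout 86 the highest array for the brightest. Of the dimmer ones, those at 0.58 and 0.79 had no overlap. Nexn, which binds actin filaments, differed by -0.53 (adjusted p = 0.283), Sorbs2, an adaptor of adhesion sites, by -0.42 (0.269) and Pgm5, a protein of adherens junctions and costameres, by -0.35 (0.422). A dimmer Sorbs2 probe set stood at -0.82, without overlap (adjusted p = 0.176 by probe set).

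The last role, other smooth muscle markers, gave 3 differences below 0 and no call. Ckb, a creatine kinase that buffers ATP, stood at 12.64, 11.92 and 12.62 in the controls and 12.18, 11.90 and 11.87 in the knockouts (difference -0.41, SE 0.22, adjusted p = 0.336). Casq2, a calcium buffer of the sarcoplasmic reticulum, had values of 7.91, 6.11 and 7.20 against 5.97, 7.13 and 5.58 (difference -0.85, SE 0.54, adjusted p = 0.405) and lay near the filter level of 6.50. Mcam, an adhesion molecule of mural and endothelial cells, had values of 12.38, 11.75 and 12.14 against 12.11, 11.89 and 12.07 (difference -0.07, SE 0.18, adjusted p = 0.865). In all 3 the groups overlapped.

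Of the 39 genes, 19 had more than 1 probe set above the filter. In 15 of these the probe sets had 1 sign, and in 4 (Cnn3, Cald1, Synm and Ldb3) they differed in sign. By probe set, 2 of 80 passed the threshold, 1 each for Tagln2 and Tpm4, where 1.51% of all probe sets tested did (1.21% higher and 0.298% lower).

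**Figure D3:**
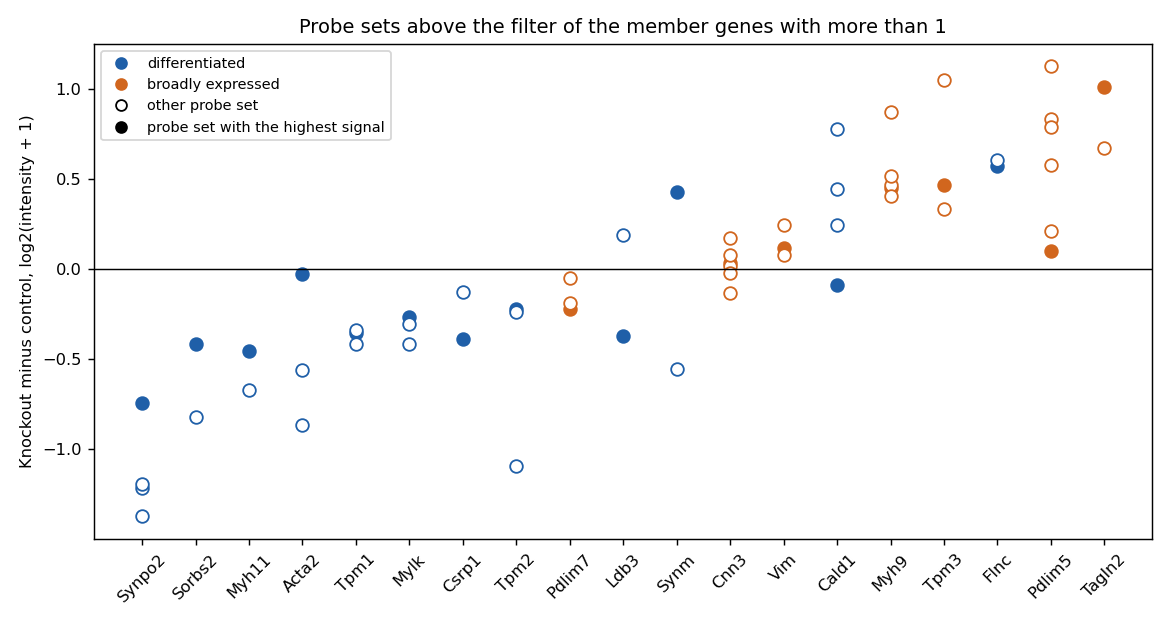
Difference between knockout and control, on the log2(intensity + 1) scale, of every probe set above the filter for the 19 genes with more than 1; filled symbols are the brightest probe set of each gene. The 4 Synpo2 probe sets lie at -0.75 or lower and the 5 Myh9 probe sets at 0.41 or higher, while those of Cald1 and Synm fall on both sides of 0.

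Changes within a family were compared as within-array differences of log2 values, the broadly expressed paralogue minus the differentiated one. This shows unequal change of 2 probe sets and not their relative level. In 8 of 11 pairs the groups did not overlap, 7 with the ratio higher in the knockout. How often ratios of other gene pairs had no overlap was not computed, and the share of single genes does not stand in for it, since a ratio cancels what both genes share on an array. An exact permutation test of 3 against 3 arrays cannot go below 0.1, which all 8 pairs reached (0.138 after Benjamini-Hochberg adjustment over the 11). The pairs are not independent, since Tpm1, Tpm4, Myh11 and Cnn1 each occur in 2.

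The ratio of Tagln2 to Tagln, relative to the control mean, was 0.09, 0.13 and -0.23 in the controls and 1.23, 1.47 and 1.32 in the knockouts. The gap was thus many times the spread within groups, with a difference of 1.34. This ratio rests on the Tagln2 probe set of suffix x, and its lowest difference under the alternatives was 1.00. Tagln2 and Tpm4 were already called on the same arrays, so ratios that hold them are not separate evidence. That of Tpm4 to Tpm1 was -0.17, 0.19 and -0.02 in the controls and 1.02, 1.40 and 1.34 in the knockouts, a difference of 1.25. For Myh9 and Myh11 it was -0.18, 0.21 and -0.03 against 0.75, 1.22 and 0.76, a difference of 0.91. Csrp2 over Csrp1 differed by 0.90, Tpm3 over Tpm1 by 0.82 and Tpm4 over Tpm2 by 1.12. The ratio to Csrp1 rests on the brighter Csrp1 probe set, as the other one differed less. Myh10 over Myh11 differed by 0.38, with knockout 72 at 0.28 just above control 74 at 0.26.

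Other families did not show this pattern. Vim over Des differed by 0.55 with overlapping groups (exact permutation p = 0.2), and the calponin ratios by 0.01 for Cnn2 and 0.10 for Cnn3 over Cnn1 (exact permutation p = 1 and 0.8). Flna over Flnc ran the opposite way, with a difference of -0.82 and no overlap.

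**Figure D4:**
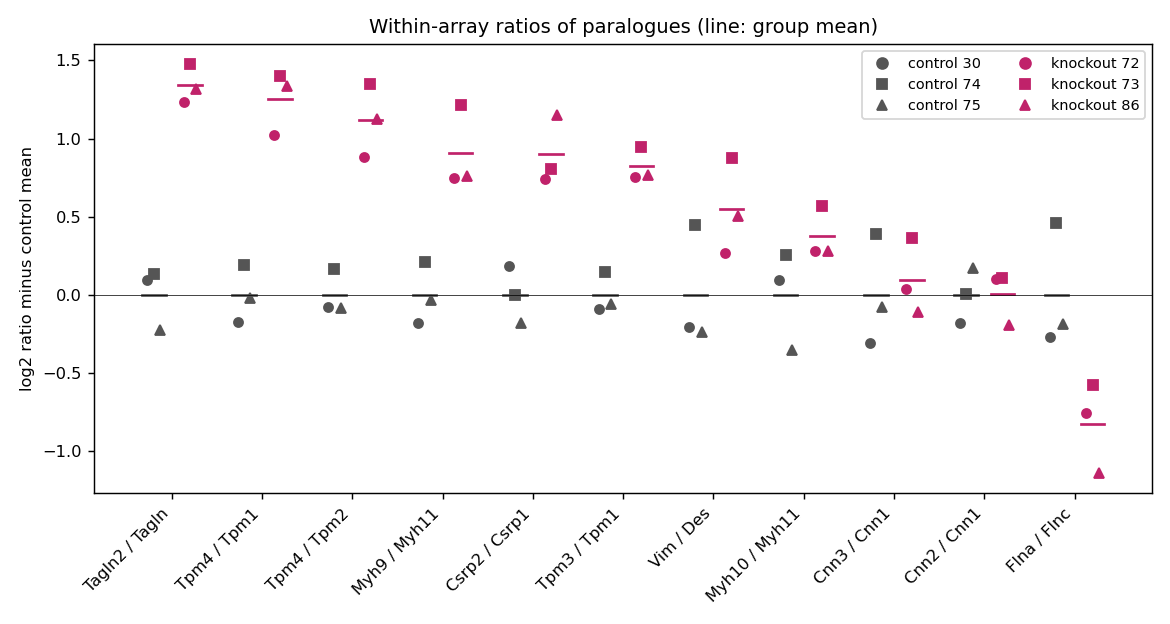
Log2 ratio of 2 paralogues within each array, relative to the control mean of each pair, for 11 pairs; grey symbols are control arrays, magenta symbols knockout arrays and lines group means. Tagln2 over Tagln and Tpm4 over Tpm1 have differences of 1.34 and 1.25, and Flna over Flnc alone has a difference clearly below 0, of -0.82.

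The arrays differed in the level of the whole set. Control 74 was the lowest of the 3 control arrays for 35 of the 39 genes (89.7%), as it was for 37.9% of all genes tested. In the differentiated class the median deviation from each gene's mean was 0.38, -0.18 and 0.27 in controls 30, 74 and 75 and -0.08, -0.31 and -0.09 in knockouts 72, 73 and 86. Control 74 thus lay below knockouts 72 and 86. The differentiated median was -0.52 without control 74 and -0.27 without control 30. In the broadly expressed class the deviations were 0.13, -0.29 and -0.02 in the controls and 0.06, 0.02 and 0.04 in the knockouts.

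Markers of other cells also differed between these arrays. The summed intensity of 10 white adipocyte genes, 9 of them above the filter, was 58156 in control 74 and 18729 and 35987 in controls 30 and 75. It was 31983, 26996 and 20520 in knockouts 72, 73 and 86. The part of adipocytes in the results was not tested. All 9 adipocyte genes above the filter had a difference below 0 and none passed the limma threshold, nor an unadjusted p of 0.05. Macrophage genes, 15 of 15 higher in the knockout with 0 past the limma threshold and 11 at an unadjusted p under 0.05, summed to 4071 to 7500 in controls and to 10940 to 36398 in knockouts, with knockout 73 the highest. That array was the lowest knockout for 29 of the 39 genes (74.4%), as it was for 36.5% of all genes tested. Arterial endothelial genes had a difference below 0 in 11 of 11 tested (27236 to 32549 in controls and 20486 to 25836 in knockouts), and Schwann cell genes in 6 of 6 (7618 to 11533 and 4246 to 6806). In both lists 0 passed the limma threshold and 5 had an unadjusted p under 0.05. Proliferation genes rose in 8 of 8 tested. All 8 had a control mean under the filter level of 6.50, from 4.36 for Nuf2 to 6.42 for Ccna2. They passed the filter only through the knockout arrays, so the direction of this count was largely fixed by the filter. Over 11 such genes, 8 of them above the filter, the sums were 375 to 467 in controls and 6164 to 11592 in knockouts. Broadly expressed members such as Tagln2, Tpm4 and Myh9 are also made by macrophages and dividing cells, and the part of these cells in the results was not tested.

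Mural cell genes outside the set had a median difference of -0.31, with 14 of 18 lower and 0 past the threshold (4 lower at an unadjusted p under 0.05). Their summed intensity overlapped, at 32910 to 53524 in controls and 34058 to 40333 in knockouts. Adventitial fibroblast genes had a difference above 0 in 7 of 10, and summed to 22442 to 32909 in controls and 33873 to 35979 in knockouts. Of these 1 rose, Mfap5, a microfibril protein named after its values were seen (difference 1.08, adjusted p = 0.0224), and 3 were higher at an unadjusted p under 0.05. Mesothelial (9) and lymphocyte (8) genes all lay below the filter, as did 11 of 16 striated muscle genes, among them the skeletal and cardiac myosin heavy chains Myh1, Myh2, Myh4, Myh6 and Myh7. The other 5 striated muscle genes (Myl1, Ckm, Tnnt2, Acta1 and Actc1) all had a difference below 0, with a median of -0.72, 0 past the limma threshold and 1 at an unadjusted p under 0.05. The summed intensity of the 16 was 3123, 1029 and 2647 in controls 30, 74 and 75 and 1051, 1487 and 1264 in knockouts 72, 73 and 86. Control 74 was thus low among the controls here, as it was in the differentiated class. Tnnt2, a cardiac troponin named after its values were seen, stood at 10.76, 6.41 and 10.39 in the controls and 6.64, 9.17 and 6.74 in the knockouts, high in controls 30 and 75 and in knockout 73. Casq2, a member placed in the differentiated class, was likewise highest on these arrays. The part of striated muscle in the results was not tested.

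**Figure D5:**
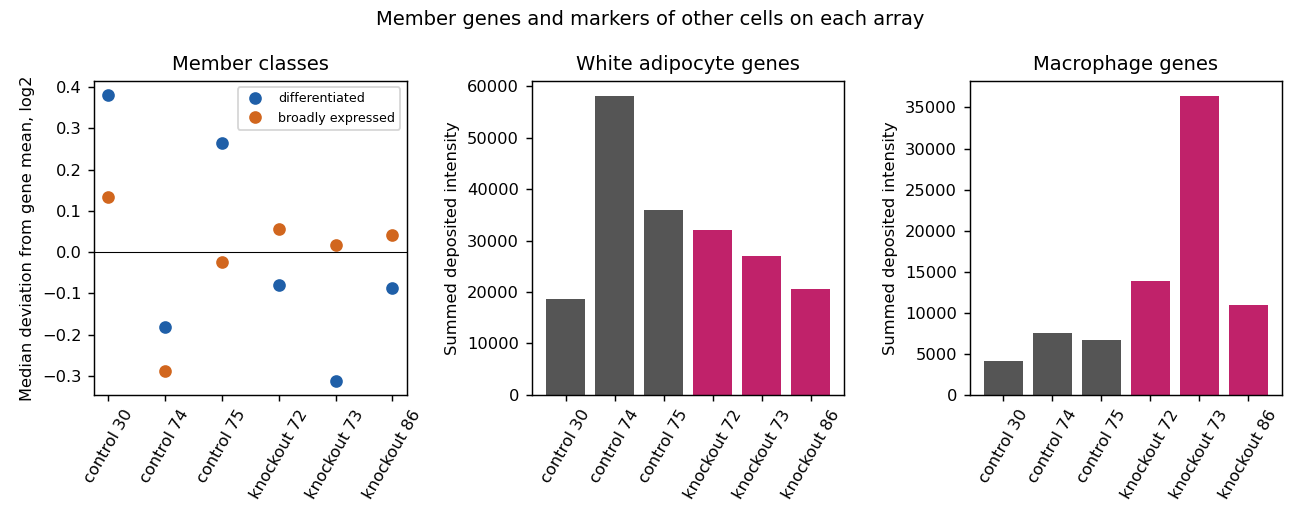
Left, median deviation of the differentiated (blue) and broadly expressed (orange) genes from their mean over the 6 arrays, in log2 units; middle and right, summed deposited intensity of 10 white adipocyte genes and of 15 macrophage genes on each array, with controls in grey and knockouts in magenta. Control 74 has the highest adipocyte sum, 58156, and a differentiated median below that of knockouts 72 and 86; knockout 73 has the highest macrophage sum, 36398, and the lowest differentiated median, -0.31.

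Related structural genes outside the set were read from 2 further lists. Of 34 other actin cytoskeleton genes tested, 25 were higher and none passed, with a median of 0.11 (7 higher and 1 lower at an unadjusted p under 0.05). The smallest p-values were those of Fscn1, the actin bundler fascin, at 0.90 (adjusted p = 0.0625), and of Nes, the intermediate filament nestin, at 0.92 (adjusted p = 0.0674). Of 16 dystrophin complex and caveolar genes, 8 were higher and 8 lower, none passed, and the median was 0.02 (3 higher and 3 lower at an unadjusted p under 0.05). Sntb1, a syntrophin, stood at -1.16 (adjusted p = 0.096) and Cavin2, a caveolar coat protein, at -0.87 (adjusted p = 0.109).

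Promoter windows of the members were searched for 2 motifs, on both strands. The CArG box, to which serum response factor binds, is CC, a run of 6 A or T bases, and GG. The other was CATTCC, the core to which TEAD factors bind. RefSeq windows of GRCm38.p6, from 250 bases before to 50 after the annotated start, were at hand for 34 of the 39 genes. None was at hand for Actg2, Myh11, Tagln, Csrp2 or Nexn, so the counts leave these genes out. The search allowed no mismatch, so near matches to a CArG box were not counted. A CArG box lay in those of 4 genes (11.8%; Myl6, Myl9, Cnn2 and Ldb3), against 1.65% of the 8648 genes tested that had a window. CATTCC lay in those of 13 genes (38.2%), against 14.2%, and in no member window did the motifs overlap. By class, the CArG box was found for 2 of 21 differentiated and 2 of 13 broadly expressed genes, and CATTCC for 10 of 21 and 3 of 13.

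The windows of both genes that rose, of Lmod1, which had the lowest difference, and of Myl9, shown for its CArG box, are printed 5′ to 3′ in the direction of transcription. Capitals mark a CArG box or CATTCC on either strand.
Tagln2, chr1:172499996-172500295, plus strand: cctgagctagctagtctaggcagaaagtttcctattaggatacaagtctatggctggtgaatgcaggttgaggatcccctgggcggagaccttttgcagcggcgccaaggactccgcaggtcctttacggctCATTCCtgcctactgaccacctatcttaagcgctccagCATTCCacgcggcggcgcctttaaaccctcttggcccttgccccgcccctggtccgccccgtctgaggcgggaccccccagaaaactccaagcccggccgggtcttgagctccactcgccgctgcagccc
Tpm4, chr8:72135038-72135337, plus strand: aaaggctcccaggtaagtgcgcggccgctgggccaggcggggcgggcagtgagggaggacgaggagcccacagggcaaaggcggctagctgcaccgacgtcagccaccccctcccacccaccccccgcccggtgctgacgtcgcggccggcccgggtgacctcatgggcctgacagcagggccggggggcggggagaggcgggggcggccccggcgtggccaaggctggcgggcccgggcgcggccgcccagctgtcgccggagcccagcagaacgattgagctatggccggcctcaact
Lmod1, chr1:135324563-135324862, plus strand: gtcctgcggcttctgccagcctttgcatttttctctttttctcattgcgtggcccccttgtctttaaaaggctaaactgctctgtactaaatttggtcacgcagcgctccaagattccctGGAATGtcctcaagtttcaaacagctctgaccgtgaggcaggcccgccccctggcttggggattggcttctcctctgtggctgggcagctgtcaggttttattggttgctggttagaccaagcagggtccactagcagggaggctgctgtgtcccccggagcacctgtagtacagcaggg
Myl9, chr2:156775214-156775513, plus strand: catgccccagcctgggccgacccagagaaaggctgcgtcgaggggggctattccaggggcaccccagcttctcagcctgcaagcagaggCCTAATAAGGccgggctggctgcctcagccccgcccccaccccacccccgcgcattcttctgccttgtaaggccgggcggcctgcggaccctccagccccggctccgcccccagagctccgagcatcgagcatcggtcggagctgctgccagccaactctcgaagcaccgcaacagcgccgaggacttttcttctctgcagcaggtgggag
The Tagln2 window holds CATTCC at 2 places, that of Lmod1 at 1, on the other strand, and that of Tpm4 neither motif. A match is a description of these letters and not a site of binding, and none in this window says nothing of other regions.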

How the data were processed

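Biotin-labelled RNA of each mouse was hybridised to 1 expression array. The authors deposited 1 linear intensity per probe set and array (0.78 to 18776); the steps of summarising and scaling are not given in the sources used here. Control and knockout follow the sample titles. Gene symbols came from the 2016 platform annotation (34945 probe sets with 1 symbol, 932 with several, 9160 with none); of the 34945, 34741 were found by gene identifier in RefSeq (GRCm38.p6), which changed 0 symbols.

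Values were put on a log2 scale, as log2(intensity + 1) of the deposited intensity, and then quantile normalized. Of the probe sets with 1 symbol, those with a mean under the median of such means (6.50) were left out, leaving 17473. Each gene was represented by its brightest probe set. The scale understates changes of dim genes. Knockout was set against control with lmFit and eBayes of limma 3.58.1 in R 4.3.3 (2-sided), with Benjamini-Hochberg adjustment over 10654 genes, or over 17473 probe sets where "by probe set" is written. Confidence intervals (95%) are those of limma. Paralogue ratios were tested by a 2-sided exact permutation test. Precision is limited by having 3 arrays in each group. The procedure was tested on simulated data.

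The members, lists, classes, pairs and the rule for named genes were chosen with earlier results of these data known, so their counts are descriptions. The rule gives array values for members past the threshold, the 3 with the smallest p in each role, and Acta2, Myh11 and Tagln; from each list of related genes it names the genes past the threshold, otherwise the 2 with the smallest p. Alternatives changed the filter, the choice of probe set, the normalization, the pseudocount, the prior and the array weights, or left out each array in turn. The result of 1 further list, which held 1 gene past the threshold, is not reported here.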

Additional observations from a re-analysis of the deposited data

How the results depend on the processing

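The count of genes that rose, 2, was 1 with no filter (Tagln2) or without probe sets of the suffixes x and s (Tpm4), and 4 with array weights, where Myh9 and Tpm3 joined and 10.6% of all genes passed. With 1 array left out it lay between 0 and 2. The count that fell, 0, was 1 with median centring (Lmod1), 3 with array weights (Lmod1, Myl6 and Synpo2) and 0 to 3 with 1 array left out, 3 being without control 74. Tpm3 also passed with the mean of all probe sets (0.62, adjusted p = 0.0451). Itgb1 passed with array weights (-0.78, adjusted p = 0.0314). Class medians stayed within the spread between arrays, from -0.52 to -0.26 and from -0.03 to 0.12, and 6 to 9 of the 11 paralogue ratios had no overlap. For single members, 10 of 387 values under other settings and 16 of 234 with 1 array left out changed sign, all in genes far from the threshold. They were Cald1 (0.34 with the mean of all probe sets, 0.78 without suffixes x and s), Synm (-0.063 with the mean), Actg2 (-0.0060 with median centring, -0.041 with array weights), Cnn3 (-0.030 and -0.041 under the same), Acta2 (0.013 with no normalization between arrays), and Myh10 (0.049) and Pdlim5 (-0.046) with array weights. With 1 array left out the ranges were -0.077 to 0.0088 for Acta2, -0.22 to 0.22 for Actg2, -0.37 to 0.16 for Cnn1, -0.36 to 0.12 for Cnn2, -0.081 to 0.10 for Cnn3, -0.20 to 0.018 for Cald1, -0.24 to 0.079 for Mcam, -0.10 to 1.05 for Synm and -0.062 to 0.21 for Pdlim5. The cause was not tested. No paired analysis was possible because the groups share no animal numbers. The 3 arrays per group and the partly confounded sex limit every comparison.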
